A study of Mus musculus with 5 samples.

Results

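The 10 genes described here encode the enzymes that modify collagen chains inside the cell and cross-link collagen and elastin outside it. They were chosen by name and not by a rule on measured values, although earlier results of these data were known. They comprise 2 prolyl 4-hydroxylase subunits (P4ha1, P4ha2), 3 lysyl hydroxylases (Plod1, Plod2, Plod3) and 5 lysyl oxidases (Lox, Loxl1, Loxl2, Loxl3, Loxl4). They are 10 of the 31053 genes counted in single-cell RNA sequencing of sorted mouse liver cells, and all 10 were detected in each of 5 libraries.

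Prolyl 4-hydroxylase, made of a catalytic alpha subunit (P4ha1 or P4ha2) and the beta subunit P4hb, hydroxylates prolines in nascent procollagen, and the hydroxyprolines hold the triple helix together. Lysyl hydroxylases act on lysines of the same chains and thereby set which cross-links can form later, and lysyl oxidases are secreted copper enzymes that oxidise lysines and hydroxylysines so that neighbouring collagen or elastin molecules become joined. In fibrotic liver these steps make scar collagen stiff and resistant to breakdown, and the cells known to supply them are activated hepatic stellate cells and portal fibroblasts. Stellate cells store vitamin A as retinyl ester, which fluoresces by itself and fades as they become activated.

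All cells came from livers of male Rosa26mTmG;Col1a1-Cre mice on the C57BL/6J background, in which Cre driven by a Col1a1 promoter switches on GFP, so that GFP marks cells in which that promoter had been active at some time. The treated mice received diethyl nitrosamine (DEN), a liver carcinogen, at 10 mg/kg when 2 weeks old, and from 6 weeks of age a liquid Western alcohol diet (WAD) with 3.5% v/v ethanol for 5 months. The control mice received saline and chow. Cells were sorted by vitamin A (VitA) autofluorescence and GFP into VitA+Col1a1+ and VitA-Col1a1+ gates of DEN+WAD and of chow liver, and DEN+WAD liver also gave a library labelled VitA-Col1a1-, giving 1 library in each of 5 groups. How many mice went into a library is not given in the sources used here.

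The libraries held 259 to 10481 cells and 6145748 to 149936344 UMIs (unique molecular identifiers, 1 for each captured RNA molecule), with medians of 9105.5 to 24077 UMIs a cell. The VitA+Col1a1+ chow library was the smallest on both measures, so a member at a low level rested there on few UMIs. Any pair of libraries shared between 0 and 21 cell barcodes. Levels are UMIs per 1000000 UMIs of the library or of the cells named (CPM), with an exact Poisson 95% interval, and ratios carry a conditional binomial 95% interval. These intervals cover counting error only, and with 1 library a group no test between conditions was possible.

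The gates held different cells. Markers of stellate cells (14 genes, all detected in every library) summed to 52561 CPM in VitA+Col1a1+ DEN+WAD and 49369 CPM in VitA+Col1a1+ chow, against 26749 and 12534 CPM in the matching VitA-Col1a1+ libraries. Markers of portal fibroblasts (10 genes, of which Pi16 was at 0 in VitA+Col1a1+ chow) summed to 105, 58.4, 1273 and 3452 CPM in the same order. The library labelled VitA-Col1a1- carried Col1a1 RNA at 1062 CPM, more than the 304 CPM of VitA+Col1a1+ DEN+WAD, and 43.3% of its cells fell in clusters with stellate or fibroblast markers. Its label therefore goes against its RNA, and it enters no ratio between gates or treatments here. In sums over a gate, fewer cells of a type and less RNA per cell cannot be told apart.

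The 2 windows of upstream sequence below belong to P4ha1 and Loxl4. Over all cells with at least 5000 UMIs, P4ha1 went little with Col1a1 from cell to cell in the 4 Col1a1+ libraries. Library totals of Loxl4 ran opposite to those of Lox over the same 4 libraries. Over 58 clusters of at least 50 cells, Spearman's rho between Lox and Loxl4 was -0.02. The windows are shown so that they can be set beside those levels, and an entry was found for 5 of the 10 members. They are RefSeq sequence of GRCm38.p6, 5′ to 3′ on the gene's strand, at chr10:59323046-59323295 (plus strand, 250 bases ending at the start of P4ha1) and chr19:42612814-42613056 (minus strand, 243 bases ending at the start of Loxl4). Capitals mark matches on either strand to ACGTG (the core of a hypoxia response element), to GCGTG, to a Smad-binding box (CAGAC) or to a GC box (GGGCGG).
P4ha1 upstream: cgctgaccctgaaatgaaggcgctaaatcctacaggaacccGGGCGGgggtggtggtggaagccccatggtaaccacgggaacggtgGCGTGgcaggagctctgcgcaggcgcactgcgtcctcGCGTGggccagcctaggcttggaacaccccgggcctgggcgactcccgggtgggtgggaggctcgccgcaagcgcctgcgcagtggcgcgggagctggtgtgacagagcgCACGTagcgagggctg
Loxl4 upstream: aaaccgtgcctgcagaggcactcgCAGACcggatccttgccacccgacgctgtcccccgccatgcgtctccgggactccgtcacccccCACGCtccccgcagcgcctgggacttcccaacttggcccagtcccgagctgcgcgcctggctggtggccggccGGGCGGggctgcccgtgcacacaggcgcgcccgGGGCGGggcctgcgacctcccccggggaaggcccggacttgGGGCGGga
The P4ha1 window held 1 match to ACGTG, 2 to GCGTG and 1 to GGGCGG, and the Loxl4 window held 1 to GCGTG, 1 to CAGAC and 3 to GGGCGG. Neither held CATTCC (a TEAD motif), CCAAT or TATAAA. Among 32536 different mouse upstream windows of the same source, 16.7% held ACGTG, 28.3% GCGTG, 42.2% CAGAC, 33.0% GGGCGG, 12.6% CATTCC, 33.8% CCAAT and 12.3% TATAAA. Both windows were rich in G and C (69.6% and 75.7%, against a median of 52.4%). A match of a few letters is a description of the sequence and not a site of binding.

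The prolyl 4-hydroxylase subunits were detected in all 5 libraries. P4ha1 (ENSMUSG00000019916, GRCm38 chr10:59323296-59373304, plus strand), the subunit that most tissues use, stood at 206 CPM (204 to 209) in VitA+Col1a1+ DEN+WAD, 223 (212 to 236) in VitA+Col1a1+ chow, 162 (158 to 165) in VitA-Col1a1+ DEN+WAD, 156 (149 to 162) in VitA-Col1a1+ chow and 216 (213 to 219) in the library labelled VitA-Col1a1-. P4ha1 was somewhat lower in both VitA- libraries of the Col1a1+ gates and differed little between treatments, with DEN+WAD to chow ratios of 0.924 (0.876 to 0.976) in the VitA+ gate and 1.04 (0.990 to 1.09) in the VitA- gate.

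P4ha2 (ENSMUSG00000018906, chr11:54100095-54131665, plus strand), the second catalytic subunit, stood at 15.1, 23.4, 17.6, 20.9 and 19.9 CPM in the same order of libraries. Chow was the higher library in both gates. The DEN+WAD to chow ratio was 0.646 (0.546 to 0.770) in the VitA+ gate and 0.842 (0.739 to 0.962) in the VitA- gate. Over the clusters with mesenchymal markers the VitA+ ratio was 0.674 (0.554 to 0.828), while the VitA- ratio was 0.946 and its interval (0.804 to 1.12) held 1.

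Among the lysyl hydroxylases, Plod2 had the widest range between libraries. Plod2 (ENSMUSG00000032374, chr9:92542223-92608428, plus strand) hydroxylates lysines in the telopeptides of fibrillar collagen, the step behind the stable cross-links of scar tissue. It stood at 45.2 CPM (44.2 to 46.3) in VitA+Col1a1+ DEN+WAD and 28.8 (24.7 to 33.4) in VitA+Col1a1+ chow, but at 72.3 (69.9 to 74.8) in VitA-Col1a1+ DEN+WAD and 133 (127 to 139) in VitA-Col1a1+ chow. In the fifth library, labelled VitA-Col1a1-, it stood at 73.4 (71.8 to 75.1). The DEN+WAD library was therefore the higher of its pair in the VitA+ gate, at 1.57 times chow (1.35 to 1.83), and the lower in the VitA- gate, at 0.545 times chow (0.516 to 0.577).

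Plod1 (ENSMUSG00000019055, chr4:147909753-147936767, minus strand), which hydroxylates lysines in the helix, stood at 87.0, 81.0, 76.6, 57.9 and 124 CPM in the same order of libraries. It was highest in the library labelled VitA-Col1a1- and lowest in VitA-Col1a1+ chow. The DEN+WAD to chow ratio was 1.07 (0.981 to 1.18) in the VitA+ gate and 1.32 (1.23 to 1.42) in the VitA- gate. Markers of endothelial cells (11 genes, all detected) moved with the latter, at 2206 CPM in VitA-Col1a1+ DEN+WAD against 871 in VitA-Col1a1+ chow, and within mesenchymal-like clusters alone the ratio was 1.12 (1.02 to 1.23).

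Plod3 (ENSMUSG00000004846, chr5:136987019-136996648, plus strand), which also adds sugars to hydroxylysine, lay between 46.4 and 54.1 CPM in all 5 libraries. Its DEN+WAD to chow ratios were 0.927 (0.830 to 1.04) in the VitA+ gate and 1.17 (1.07 to 1.27) in the VitA- gate. Its gene overlaps Znhit1 on the opposite strand. Cell Ranger, run at its defaults per the study's methods, counts reads on the gene's own strand.

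**Figure D1:**
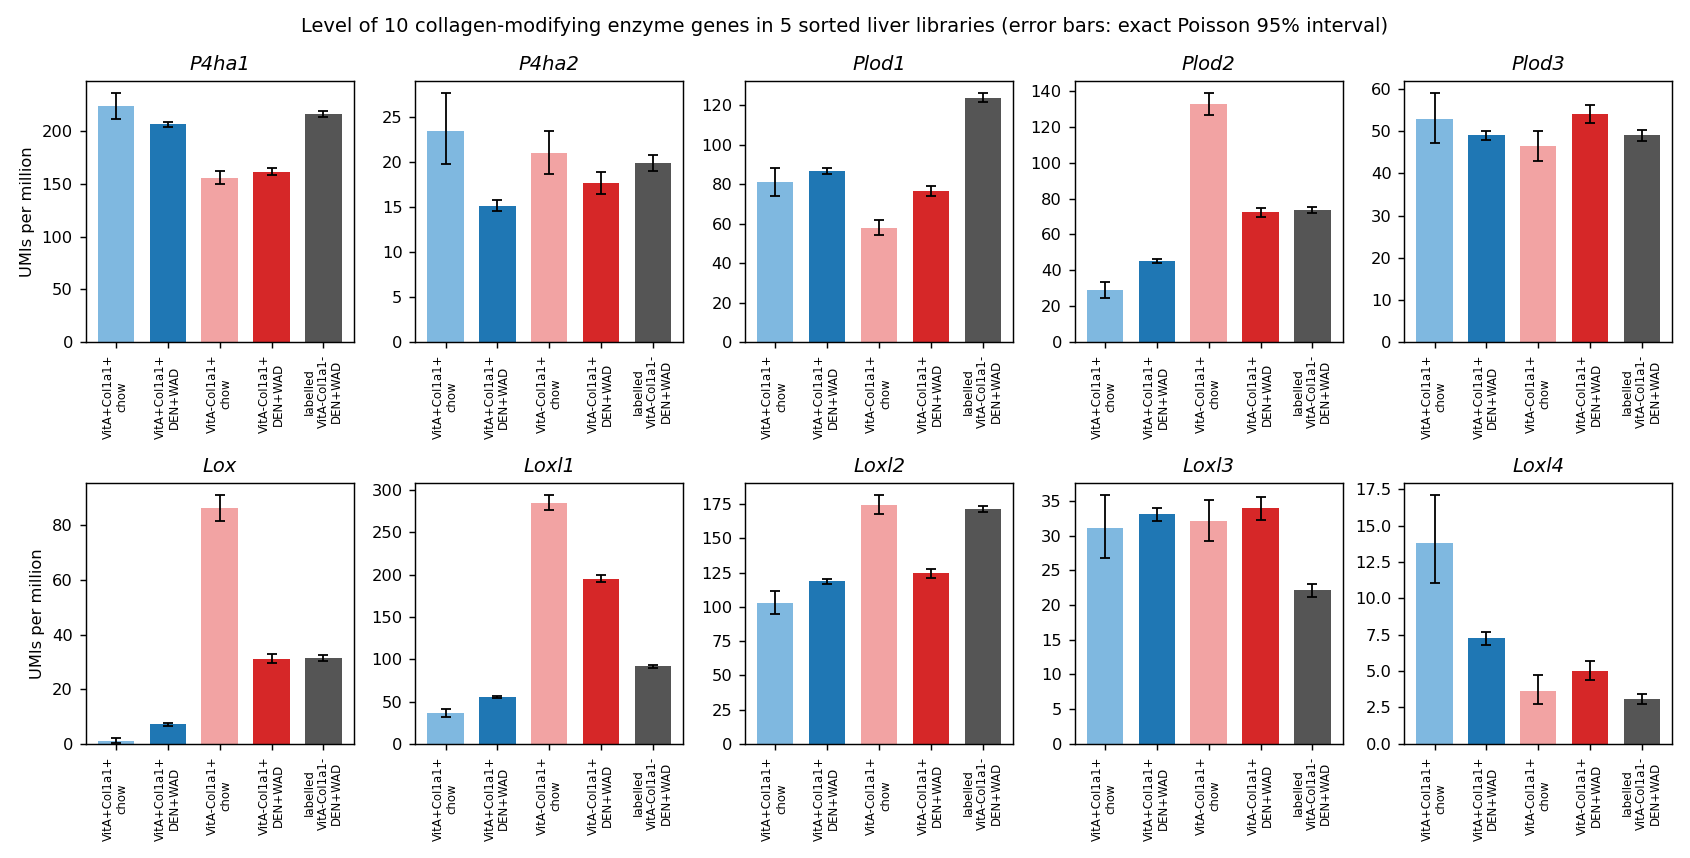
Level (CPM) of each of the 10 genes in the 5 libraries, 1 panel a gene with its own vertical axis from 0, with exact Poisson 95% intervals as error bars. Plod3 was nearly level (46.4 to 54.1), Lox and Loxl1 were highest in VitA-Col1a1+ chow (86.2 and 285), and Loxl4 was highest in VitA+Col1a1+ chow (13.8).

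As a ratio of the highest to the lowest library, Lox had the widest range among the 10 genes, while Loxl1 spanned the most CPM (36.0 to 285). Lox (ENSMUSG00000024529, chr18:52516067-52529867, minus strand, with an antisense gene on the other strand), the founding lysyl oxidase of fibrillar collagen and elastin, stood at 7.07 CPM (6.65 to 7.51) in VitA+Col1a1+ DEN+WAD and at 0.976 (0.358 to 2.12) in VitA+Col1a1+ chow, where it rested on 6 UMIs in 6 cells. In the VitA- gate it stood at 31.1 (29.6 to 32.8) with DEN+WAD and 86.2 (81.6 to 91.05) with chow, and it stood at 31.3 (30.2 to 32.4) in the library labelled VitA-Col1a1-. The order of the libraries thus ran from near 0 in VitA+Col1a1+ chow to the highest level in VitA-Col1a1+ chow, with VitA-Col1a1+ DEN+WAD and the library labelled VitA-Col1a1- not separable by counting error. The DEN+WAD library held 7.24 times the chow level (3.32 to 19.8) in the VitA+ gate and 0.361 times (0.335 to 0.389) in the VitA- gate.

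After thinning each cell with at least 5000 UMIs to 5000, a Lox UMI was found in 1.84% of cells of VitA+Col1a1+ DEN+WAD (5.18% unthinned), 0.394% of VitA+Col1a1+ chow (1.97% unthinned), 10.7% of VitA-Col1a1+ DEN+WAD (24.6% unthinned) and 25.7% of VitA-Col1a1+ chow (58.01% unthinned). The library labelled VitA-Col1a1- held 10.1% (19.4% unthinned). Macrophage-like cells of that library, taken as cells that should lack the gene, gave 0.846% thinned (exact interval 0.311 to 1.83%) and 2.54% unthinned, with a median depth of 21959 UMIs against 24306 in VitA+Col1a1+ chow. The share in VitA+Col1a1+ chow was 0.394%, with an exact interval of 0.00997 to 2.17%. The macrophage-like cells come from a library with Lox at 31.3 CPM, against 0.976 in VitA+Col1a1+ chow. They therefore cannot set the background of the chow library. On 6 UMIs, Lox in VitA+Col1a1+ chow is not read as expression.

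Loxl1 (ENSMUSG00000032334, chr9:58287738-58313186, minus strand), which is needed for elastic fibres, followed the order of Lox over the 4 Col1a1+ libraries. It stood at 55.6 CPM (54.4 to 56.8) in VitA+Col1a1+ DEN+WAD, 36.0 (31.4 to 41.0) in VitA+Col1a1+ chow, 195 (191 to 199) in VitA-Col1a1+ DEN+WAD, 285 (277 to 294) in VitA-Col1a1+ chow and 91.8 (89.96 to 93.6) in the library labelled VitA-Col1a1-. DEN+WAD was 1.55 times chow (1.35 to 1.77) in the VitA+ gate and 0.684 times chow (0.659 to 0.709) in the VitA- gate.

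Loxl2 (ENSMUSG00000034205, chr14:69609068-69695834, plus strand), a lysyl oxidase that also acts on basement membrane collagen, varied less. It stood at 119 CPM (117 to 120) in VitA+Col1a1+ DEN+WAD, 103 (95.1 to 111) in VitA+Col1a1+ chow, 124 (121 to 128) in VitA-Col1a1+ DEN+WAD, 175 (168 to 182) in VitA-Col1a1+ chow and 172 (169 to 174) in the library labelled VitA-Col1a1-. The last pair was not separable by counting error. The DEN+WAD to chow ratio was 1.15 (1.06 to 1.25) in the VitA+ gate and 0.712 (0.680 to 0.746) in the VitA- gate.

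Loxl3 (ENSMUSG00000000693, chr6:83034173-83052562, plus strand, overlapping Htra2 on the other strand) lay between 31.1 and 33.9 CPM in the 4 Col1a1+ libraries and at 22.1 in the library labelled VitA-Col1a1-. Its intervals overlapped in every pair of the 4. Loxl4 (ENSMUSG00000025185, chr19:42593982-42612813, minus strand) stood at 7.24 CPM (6.82 to 7.69) in VitA+Col1a1+ DEN+WAD, 13.8 (11.05 to 17.1; 85 UMIs) in VitA+Col1a1+ chow, 5.04 (4.42 to 5.72) in VitA-Col1a1+ DEN+WAD, 3.60 (2.70 to 4.70; 54 UMIs) in VitA-Col1a1+ chow and 3.08 (2.75 to 3.43) in the library labelled VitA-Col1a1-. Loxl4 was thus highest in VitA+Col1a1+ chow and low in VitA-Col1a1+ chow, the reverse of Lox, Loxl1 and Plod2. Its DEN+WAD to chow ratio was 0.524 (0.420 to 0.661) in the VitA+ gate and 1.40 (1.04 to 1.92) in the VitA- gate.

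Summed by family, the prolyl 4-hydroxylases lay between 177 and 247 CPM over the 5 libraries and the lysyl hydroxylases between 163 and 246. The lysyl oxidases ranged more widely, from 185 CPM (174 to 196) in VitA+Col1a1+ chow and 222 (219 to 224) in VitA+Col1a1+ DEN+WAD to 390 (384 to 395) in VitA-Col1a1+ DEN+WAD and 582 (570 to 594) in VitA-Col1a1+ chow. The library labelled VitA-Col1a1- stood at 320 (316 to 323).

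Whether the DEN+WAD regimen went with a different level of these enzymes in the vitamin A-retaining gate was read from the VitA+Col1a1+ pair. Of the 10 genes, 4 were higher with DEN+WAD by an interval above 1 (Plod2, Lox, Loxl1, Loxl2), 3 were lower (P4ha1, P4ha2, Loxl4) and 3 had an interval holding 1, although P4ha1 was higher under TMM (0.07 on the log2 scale) and DESeq2 scaling (0.01). Their median log2 ratio was 0.10, against -0.07 over 9592 genes with a mean of at least 5 CPM. Of the 9 members at that mean, 0 passed 2-fold in either direction, against 0.970% of all genes higher, 3.11% lower and 4.08% in either direction. Lox, at 7.24-fold on 6 UMIs in chow, lay under the minimum mean and was not among the 9. Col1a1 itself was 3.06 times higher (2.82 to 3.32).

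Within the mesenchymal-like clusters of this gate (9716 cells with DEN+WAD, 191 with chow), Lox, Loxl1, Plod2 and Loxl4 kept their directions. Lox stood at 5.58 against 0.848 CPM (4 UMIs), a ratio of 6.58 (2.56 to 24.2), and Loxl1 at 47.8 against 28.8 CPM, a ratio of 1.66 (1.40 to 1.98). Plod2 stood at 1.48 (1.25 to 1.76) and Loxl4 at 0.538 (0.419 to 0.703), while the Loxl2 interval (0.979 to 1.17) now held 1. Portal fibroblast markers were 105 CPM in the DEN+WAD library of this gate and 58.4 in chow. Endothelial markers were 322 and 670 CPM. Hepatocyte markers (9 genes, of which Apoc3 and Fabp1 were at 0 in chow) were 119 and 30.9 CPM. The part of these cell types in the result was not tested.

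In the VitA-Col1a1+ gate the same genes lay mostly in the other direction. Here 3 of 10 members were higher with DEN+WAD by an interval above 1 (Plod1, Plod3, Loxl4), 5 were lower (P4ha2, Plod2, Lox, Loxl1, Loxl2) and 2 had an interval holding 1. Their median log2 ratio was -0.10, against -0.03 over 10241 genes. Of the 9 members at the minimum mean, Lox alone passed 2-fold lower and 0 passed it higher, against 4.94% of all genes lower, 4.39% higher and 9.34% in either direction. Col1a1 was at 0.522 times the chow level (0.515 to 0.530).

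Portal fibroblast markers moved with this comparison, at 1273 CPM with DEN+WAD and 3452 with chow, as did smooth muscle markers (8 genes, all detected), at 294 and 1012 CPM. Their part in the result was not tested. Within mesenchymal-like clusters (1748 against 516 cells), Lox was at 31.2 against 79.6 CPM, a ratio of 0.392 (0.357 to 0.429), and Plod2 at 78.3 against 128 CPM, a ratio of 0.612 (0.573 to 0.653). Loxl1 was at 0.730 (0.700 to 0.762) and Loxl2 at 0.840 (0.794 to 0.889). In cells with at least 1 UMI of Lrat, the stellate cell enzyme that stores vitamin A, and at least 5000 UMIs (1883 against 480 cells), Lox was at 30.4 against 90.3 CPM, a ratio of 0.337 (0.309 to 0.367). No background share of Lrat in other cells was taken, so these cells are not read as stellate cells alone.

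**Figure D2:**
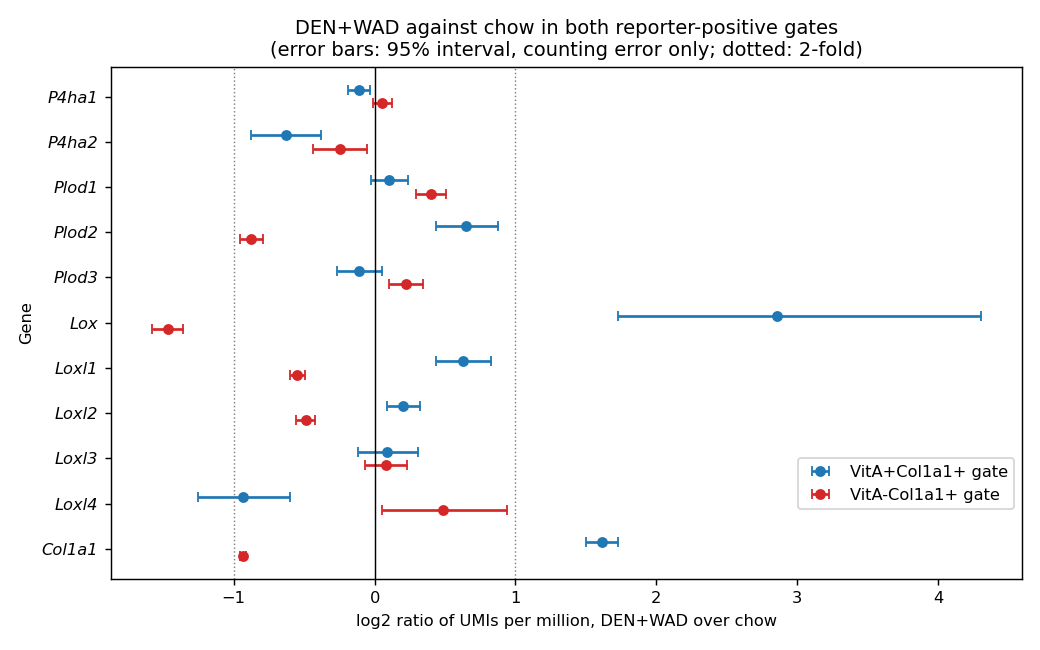
Ratio of DEN+WAD to chow in each Col1a1+ gate for the 10 genes and Col1a1, as log2 on the horizontal axis, with 95% intervals for counting error as error bars. Lox, Plod2, Loxl1 and Loxl2 lay above 1 in the VitA+ gate (7.24, 1.57, 1.55 and 1.15) and below 1 in the VitA- gate (0.361, 0.545, 0.684 and 0.712), and Loxl4 lay the other way round.

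The gap between the gates was wide in chow liver. Lox was 88.3 times higher in VitA-Col1a1+ than in VitA+Col1a1+ cells of chow liver (40.5 to 241), Loxl1 7.94 times (6.93 to 9.13) and Plod2 4.60 times (3.95 to 5.40), whereas Loxl4 was at 0.260 times (0.182 to 0.370). The Lox ratio rests on 6 UMIs in VitA+Col1a1+ chow, a level not read as expression above. The share of all genes past 2-fold was 10.5% higher, 5.37% lower and 15.9% in either direction. Loxl1 and Plod2 were past it higher. Lox and Loxl4 were past it too, but reached the minimum mean of 5 CPM only through the gate where each was high, so their calls are not counted against that share. P4ha1 was lower, at 0.697 times (0.652 to 0.745). Within mesenchymal-like clusters the Lox ratio, on 4 UMIs in the VitA+ gate, was 93.9 (36.5 to 345), the Loxl1 ratio 9.73 (8.20 to 11.6) and the Plod2 ratio 4.29 (3.60 to 5.13).

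In DEN+WAD liver the same gap was narrower. Lox was 4.40 times higher in the VitA- gate (4.07 to 4.77), Loxl1 3.51 times (3.41 to 3.62) and Plod2 1.60 times (1.53 to 1.67), and Loxl4 was at 0.696 times (0.602 to 0.801). Lox and Loxl1 passed 2-fold higher and 0 of 10 members passed it lower, against 8.64% and 1.65% of all genes, or 10.3% in either direction. Col1a1 showed the same narrowing, from 18.4-fold in chow (17.03 to 20.02) to 3.15-fold (3.11 to 3.19). The comparisons between gates and between treatments share their libraries and are not independent of each other.

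How far each enzyme went with Col1a1 from cell to cell was described in cells with at least 5000 UMIs, each library by itself (10213, 2572, 254, 643 and 7323 cells in the order VitA+Col1a1+ DEN+WAD, VitA-Col1a1+ DEN+WAD, VitA+Col1a1+ chow, VitA-Col1a1+ chow and the library labelled VitA-Col1a1-). Cells of a library share its depth and free RNA, so the values are descriptions. Spearman's rho with Col1a1 UMIs per 10000 was 0.39, 0.68, 0.16, 0.50 and 0.67 for Loxl1, the highest of the 10 genes except in VitA+Col1a1+ chow, where Loxl2 stood at 0.22. Among all genes at the minimum mean, Loxl1 ranked 5 of 9422 in VitA+Col1a1+ DEN+WAD, 12 of 10137 in VitA-Col1a1+ DEN+WAD, 239 of 9696 in VitA+Col1a1+ chow, 12 of 10205 in VitA-Col1a1+ chow and 61 of 10569 in the library labelled VitA-Col1a1-.

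Lox followed at 0.26, 0.48, 0.08, 0.27 and 0.54, Loxl2 at 0.27, 0.35, 0.22, 0.27 and 0.63, and Plod2 at 0.20, 0.43, 0.07, 0.25 and 0.60. P4ha1 lay near 0 in the 4 Col1a1+ libraries, between -0.05 and 0.06, and at 0.15 in the library labelled VitA-Col1a1-, and Plod1 was at -0.21 in VitA-Col1a1+ DEN+WAD. Within mesenchymal-like clusters of VitA-Col1a1+ DEN+WAD, P4ha1 was at -0.13 and Plod1 at -0.000591. The medians over all genes were 0.01 to 0.03. In the sparse VitA+Col1a1+ chow library the weak values are not read as relations.

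When cells were ordered by Col1a1, Lox, Loxl1, Loxl2 and Plod2 showed the widest steps. In VitA+Col1a1+ DEN+WAD, Lox stood at 1.17 CPM in cells with 0 Col1a1 UMIs, at 2.32 in cells above 0 and under 2 per 10000, at 7.90 from 2 to under 10, at 48.1 from 10 to under 50 and at 198 in cells at 50 or more. Loxl1 stood at 20.0, 37.2, 83.8, 259 and 487 CPM over the same ranges, and Plod2 at 32.5, 41.1, 56.5, 102 and 189. Loxl2 stood at 83.3, 105, 153, 286 and 460. Loxl3, from 30.7 to 54.0, and Loxl4, from 6.54 to 11.4, stepped less, and P4ha1 stayed between 200 and 208 CPM in all 5 ranges.

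Cells at 10 or more Col1a1 UMIs per 10000 were set against cells under 2. In VitA+Col1a1+ DEN+WAD (405 against 7744 cells) the ratio was 41.7 for Lox (35.2 to 49.6), 10.7 for Loxl1 (10.2 to 11.3), 3.36 for Loxl2 (3.22 to 3.51) and 3.15 for Plod2 (2.94 to 3.38). These 4 of 10 members passed 2-fold higher and 0 lower, against 4.94% and 2.19% of all genes. Lox, at 1.64 CPM in the cells under 2, reached the minimum mean only through the high cells, as it did in VitA-Col1a1+ DEN+WAD (3.85 CPM) and the library labelled VitA-Col1a1- (2.27 CPM), so nothing is read from its call. P4ha1 was at 0.984 (0.937 to 1.03).

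The same 4 members passed 2-fold higher in VitA-Col1a1+ DEN+WAD (617 against 1069 cells), where 7.59% of all genes did and 10.6% passed it lower, with 18.5 for Lox (14.3 to 24.2), 9.23 for Loxl1 (8.51 to 10.0), 3.60 for Plod2 (3.26 to 3.97) and 2.46 for Loxl2 (2.30 to 2.64). They did so again in VitA-Col1a1+ chow (404 against 65 cells, 12.7% of all genes), with 17.4 for Lox (8.41 to 43.4), 13.8 for Loxl1 (9.68 to 20.6), 11.5 for Plod2 (7.04 to 20.1) and 2.85 for Loxl2 (2.28 to 3.60). Plod1 went the other way there, at 0.407 (0.340 to 0.490), where 15.7% of all genes passed 2-fold lower. In the library labelled VitA-Col1a1- (2151 against 3824 cells), 6 of 9 measured members passed 2-fold higher and 0 lower, against 12.8% and 15.8% of all genes, led by Loxl1 at 49.3 (43.5 to 56.2) and Lox at 37.6 (31.2 to 45.8). Loxl1, at 4.98 CPM in the low cells there, also reached the minimum mean only through the high cells.

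The cell types of the ranges differed: mesenchymal-like cells were 5.44% of cells with 0 Col1a1 UMIs in the library labelled VitA-Col1a1- and 42.1% in VitA-Col1a1+ DEN+WAD. Within mesenchymal-like clusters the Lox ratio was 37.2 (31.0 to 44.8) in VitA+Col1a1+ DEN+WAD, 16.9 (12.02 to 24.5) in VitA-Col1a1+ DEN+WAD, 10.2 (3.97 to 37.5) in VitA-Col1a1+ chow and 8.13 (5.95 to 11.4) in the library labelled VitA-Col1a1-. The Loxl1 ratio was 9.23, 5.71, 5.21 and 7.62, the Plod2 ratio 3.096, 2.20, 4.94 and 1.43, and the Loxl2 ratio 3.46, 2.13, 1.73 and 1.98. Loxl2 thus fell short of 2-fold in VitA-Col1a1+ chow (interval 1.28 to 2.40) and in the fifth library (interval 1.83 to 2.14). Of the 6 members past 2-fold in the latter, Lox and Loxl1 remained past it, while P4ha2 was at 1.45 and Loxl3 at 1.23. The Plod1 ratio of 0.407 in VitA-Col1a1+ chow became 0.698 with an interval (0.493 to 1.02) that held 1. In VitA-Col1a1+ DEN+WAD it went from 0.594 (0.548 to 0.644) to 0.967 (0.858 to 1.09). P4ha1, at 0.889 (0.839 to 0.941) over all classes of VitA-Col1a1+ DEN+WAD, was at 0.751 (0.698 to 0.809) in its mesenchymal-like clusters. It was at 0.816 (0.766 to 0.869) in those of the fifth library, and its interval held 1 in those of VitA+Col1a1+ DEN+WAD and VitA-Col1a1+ chow.

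**Figure D3:**
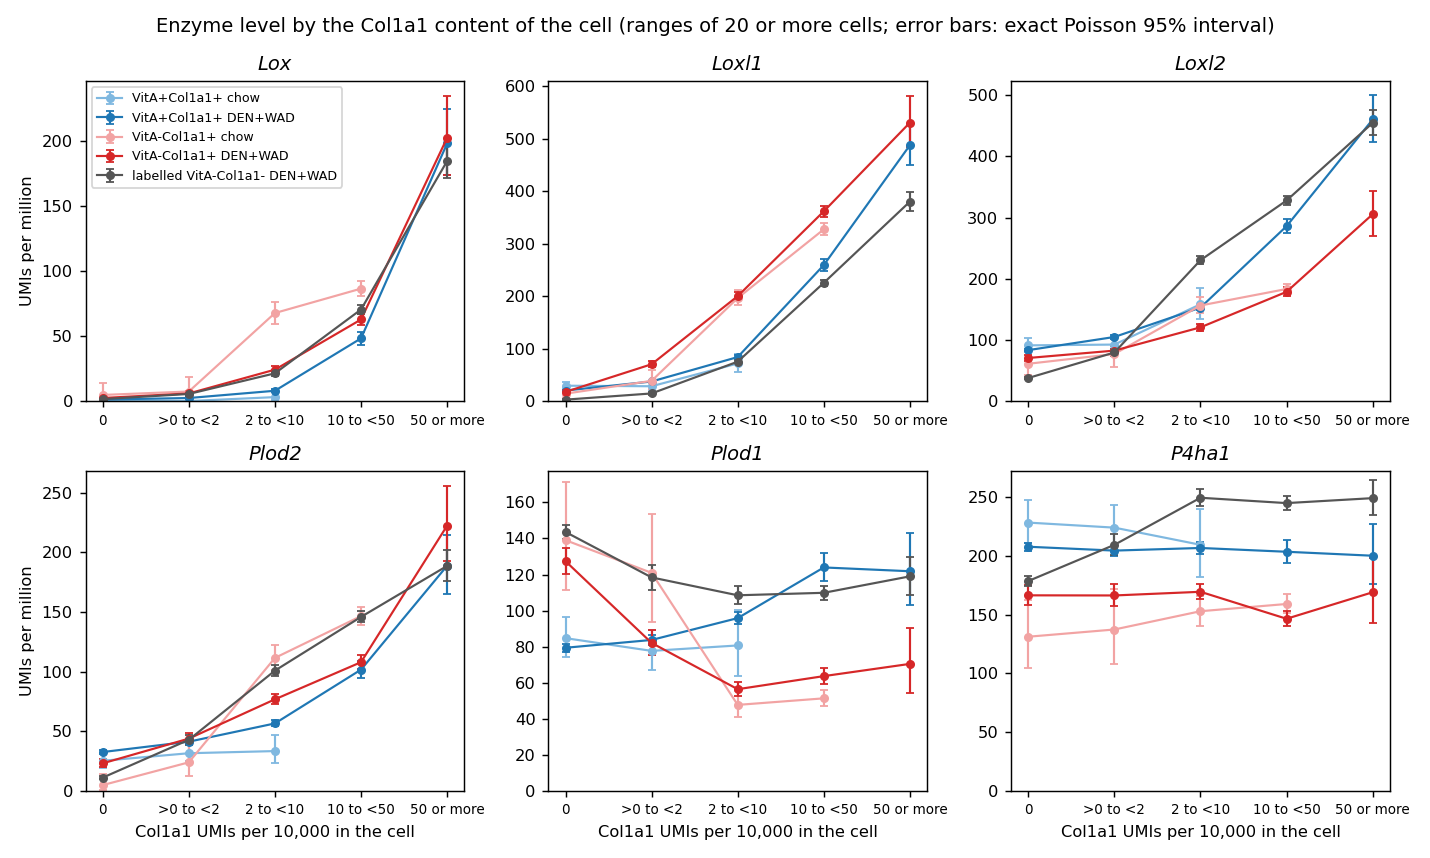
Level (CPM) of 6 of the genes in cells with at least 5000 UMIs, grouped by Col1a1 UMIs per 10000 (0, above 0 to under 2, 2 to under 10, 10 to under 50, 50 or more), 1 line a library, with exact Poisson 95% intervals as error bars and ranges of at least 20 cells. In VitA+Col1a1+ DEN+WAD, Lox climbed from 1.17 to 198 and Loxl1 from 20.0 to 487 over the ranges, and P4ha1 stayed between 200 and 208.

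Cells of the same Col1a1 range could then be compared between libraries. The ranges are wide and were filled differently. Cells from 10 to under 50 were 23.0% of the cells ranged in VitA-Col1a1+ DEN+WAD and 59.9% of those in VitA-Col1a1+ chow. The part of Col1a1 differences inside a range was not tested. In the VitA- gate, cells from 2 to under 10 Col1a1 UMIs per 10000 (886 with DEN+WAD, 174 with chow) held Lox at 24.1 against 67.6 CPM, a ratio of 0.357 (0.304 to 0.419), and cells from 10 to under 50 (591 and 385) at 62.6 against 86.3, a ratio of 0.725 (0.658 to 0.800). Loxl1 stood at 200 against 196 CPM in the lower range, a ratio of 1.02 (0.940 to 1.11), and at 361 against 327 in the higher, a ratio of 1.10 (1.06 to 1.16). In these 2 ranges Lox was lower with DEN+WAD and Loxl1 was not. At 0 and above 0 to under 2, with 36 and 29 chow cells, the Lox intervals (0.150 to 2.60 and 0.289 to 3.05) held 1, and Loxl1 was at 1.24 (0.638 to 2.76) and 1.82 (1.18 to 2.97).

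Plod2 in that gate was lower with DEN+WAD from 2 to under 10 and from 10 to under 50, at 0.688 (0.616 to 0.770) and 0.736 (0.683 to 0.793), but higher at 0 and above 0 to under 2, at 4.90 (1.65 to 23.9) and 1.84 (1.06 to 3.49). At 0 the chow side rested on 3 Plod2 UMIs. Mesenchymal-like cells were 42.1% of that range with DEN+WAD and 25% with chow, and 73.9% and 58.6% above 0 to under 2. The part of this make-up in the ratios was not tested. Loxl2 was at 0.771 (0.703 to 0.847) and 0.975 (0.916 to 1.04) in the higher pair of ranges, and its intervals held 1 in the lower pair. In the VitA+ gate the range from 2 to under 10 held only 42 chow cells and 3 Lox UMIs, and the Lox ratio of 2.61 had an interval (0.884 to 12.7) that held 1. Loxl1 there was at 1.17 (0.925 to 1.503), Plod2 at 1.70 (1.21 to 2.47) and Loxl4 at 0.383 (0.243 to 0.638). The ranges at 0 and above 0 to under 2 held 114 and 97 chow cells. Loxl1 lay on opposite sides of 1 in them, at 0.685 (0.544 to 0.872) and 1.32 (1.04 to 1.71). Plod2 was at 1.29 (1.01 to 1.67) and 1.31 (1.04 to 1.67), and Loxl4 at 0.728 (0.482 to 1.15) and 0.455 (0.327 to 0.649).

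Between the gates of DEN+WAD liver, Lox was higher in VitA- cells by 2.00 times (1.18 to 3.26) at 0 Col1a1 UMIs, by 2.51 times (1.71 to 3.63) above 0 and under 2, by 3.05 times (2.61 to 3.58) from 2 to under 10, by 1.30 times (1.15 to 1.47) from 10 to under 50 and by 1.02 times (0.837 to 1.24) at 50 or more, where the range held 26 and 43 cells. Loxl2 lay the other way in the same Col1a1 ranges, at 0.789 (0.748 to 0.831), 0.625 (0.589 to 0.662) and 0.664 (0.572 to 0.769) over the last 3 ranges and below 1 in the first 2 as well. In chow liver, at 2 to under 10 (174 against 42 cells), Lox was 22.4 times higher in VitA- cells (7.56 to 109, on 3 UMIs in the VitA+ gate), Plod2 3.35 times (2.35 to 4.93) and Loxl1 2.74 times (2.15 to 3.55), and Loxl4 was at 0.0792 times (0.0260 to 0.204). At 0 Col1a1 UMIs (36 against 114 cells), Plod2 was instead lower in VitA- cells, at 0.187 (0.0376 to 0.570, on 3 UMIs in the VitA- gate), and so was Loxl1, at 0.481 (0.212 to 0.961). In that range mesenchymal-like cells were 25% of VitA- and 74.6% of VitA+ cells in chow liver. In DEN+WAD liver they were 42.1% and 95.7%. The part of this make-up in the ratios was not tested.

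Set per 100 Col1a1 UMIs of the whole library, Lox stood at 2.32 (2.19 to 2.47) in VitA+Col1a1+ DEN+WAD, 0.982 (0.359 to 2.15) in VitA+Col1a1+ chow, 3.25 (3.08 to 3.42) in VitA-Col1a1+ DEN+WAD and 4.70 (4.44 to 4.97) in VitA-Col1a1+ chow. Loxl1 stood at 18.3, 36.2, 20.4 and 15.6 in the same order, and Plod2 at 14.9, 29.0, 7.55 and 7.23. Per Col1a1 molecule, Loxl1 and Plod2 were thus highest in the VitA+Col1a1+ chow library, where Col1a1 itself was lowest, and Lox was highest in VitA-Col1a1+ chow. Corresponding values for the library labelled VitA-Col1a1- were 2.95 for Lox, 8.65 for Loxl1 and 6.92 for Plod2.

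Which cells held the RNA was read from clusters made in each library by itself, without the 10 genes, Col1a1 or the pathway genes. The library labelled VitA-Col1a1- held the widest range of cell types. In it Plod2 stood at 135 CPM in mesenchymal-like cells (4270 cells), 14.8 in endothelial-like cells (2437) and 4.35 in macrophage-like cells (1021), and Loxl2 at 305, 72.2 and 14.0. Loxl1 stood at 171, 2.53 and 6.93 CPM and Lox at 60.2, 1.65 and 1.94. The 1323 cells in unnamed clusters held Loxl1 at 111 and Lox at 31.0 CPM.

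T or NK-like cells of that library (184 cells) carried Col1a1 at 494 CPM, Loxl1 at 40.7 and Lox at 7.57, although T cells are not known to make collagen, and the part of free RNA in such values was not tested. Plod1 and P4ha1 were not limited to mesenchymal-like cells: Plod1 was higher in endothelial-like cells (189 CPM) and macrophage-like cells (159) than in mesenchymal-like cells (108), and P4ha1 stood at 253, 163 and 255. In VitA-Col1a1+ DEN+WAD, too, Plod1 stood at 184 CPM in endothelial-like cells (443 cells) against 58.3 in mesenchymal-like cells, and Loxl1 at 4.78 against 205.

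**Figure D4:**
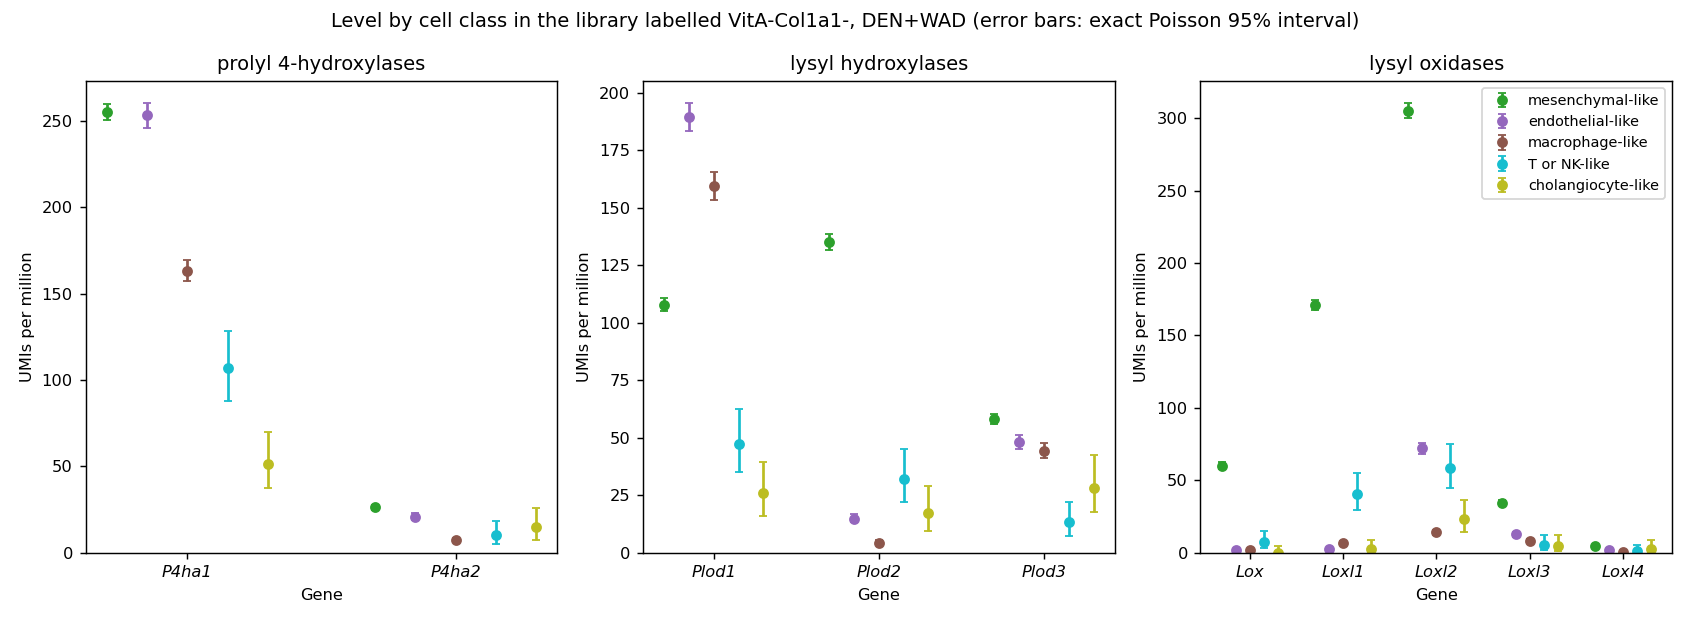
Level (CPM) of the 10 genes in 5 cell classes of the library labelled VitA-Col1a1-, with exact Poisson 95% intervals as error bars and 1 panel a family. Lox, Loxl1 and Plod2 were higher in mesenchymal-like cells (60.2, 171 and 135) than in the other classes shown, and Plod1 was higher in endothelial-like cells (189) than in mesenchymal-like cells (108).

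Within mesenchymal cells, Lox, Loxl1 and Loxl2 were not at their highest in the same clusters. In the library labelled VitA-Col1a1-, a cluster of 910 cells led by the contractile genes Actg2, Ankrd1 and Acta2 stood at 423 CPM of Loxl2 (412 to 434) but 55.0 of Loxl1 (51.0 to 59.1). A cluster of 290 cells led by Sfrp1, Dpep1 and C7 showed the reverse, with 155 of Loxl2 (143 to 169) and 472 of Loxl1 (450 to 494). Both carried Lox, at 66.2 (61.8 to 70.7) and 81.7 (72.8 to 91.4), and Col1a1, at 2134 and 3159. The highest Lox of that library, 94.9 CPM (89.8 to 100.3), was in 1015 cells led by Serpine2, Fbn2 and Sparcl1.

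In the VitA- gate, too, clusters with similar Lox differed in Loxl1. With DEN+WAD, a cluster of 422 cells led by Dpep1, Lamc3 and C7 stood at 434 CPM of Loxl1 (421 to 448), and a cluster of 164 cells led by Ephx3, Vtn and Aspn at 92.2 (81.7 to 104), although Lox was 55.8 (51.0 to 60.9) and 67.6 (58.6 to 77.5). With chow, 65 cells led by Ephx3, Rgs4 and Nrarp held Lox at 83.9 (68.7 to 101) and Loxl1 at 17.4 (10.9 to 26.4). A portal fibroblast-like cluster of 68 cells held Lox at 111 (95.01 to 129) and Loxl1 at 349 (321 to 380).

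In VitA+Col1a1+ DEN+WAD, Lox RNA was concentrated in 2 clusters. A stellate-like cluster of 424 cells led by Timp1, Ccl5 and Tnc held 46.0 CPM of Lox (41.8 to 50.6), 205 of Loxl1 (196 to 214) and 291 of Loxl2 (280 to 303). A cluster of 317 cells led by Mgp, Mfap4 and Gas6, which its markers did not name, held 45.8 of Lox (40.4 to 51.8) and 270 of Loxl1 (256 to 284). These 741 cells, 7.07% of the library, carried 64.5% of its Lox UMIs. The other stellate-like clusters of the library lay between 0.226 and 8.41 CPM of Lox.

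**Figure D5:**
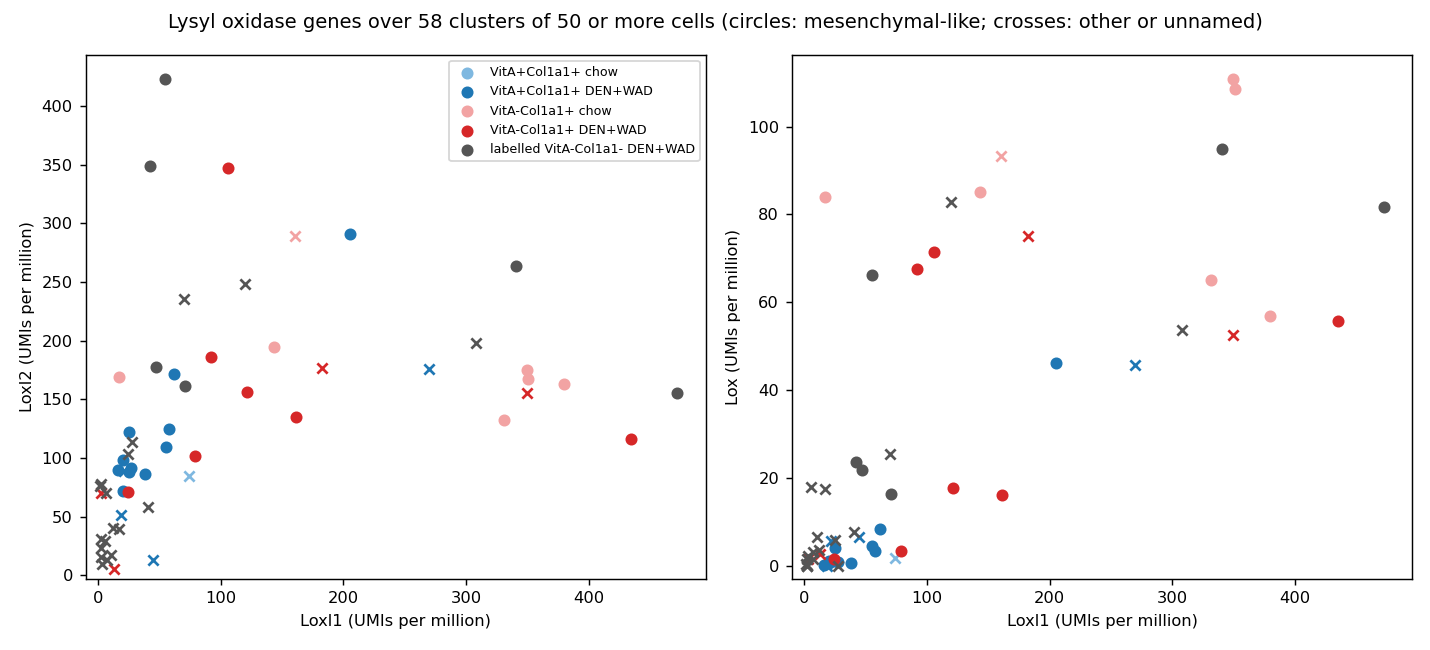
Loxl2 against Loxl1 (left) and Lox against Loxl1 (right), in CPM, over 58 clusters of at least 50 cells, coloured by library, with circles for mesenchymal-like clusters and crosses for other or unnamed ones. The contractile cluster at 423 Loxl2 and 55.0 Loxl1 and the Sfrp1 cluster at 155 Loxl2 and 472 Loxl1 lie on different arms of the left panel.

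Across those 58 clusters, which share libraries and depth, the genes most like each member were ranked by Spearman's rho among 11569 genes. They were Adamtsl2 (0.957), Mrc2 (0.946) and Htra3 (0.946) for Loxl1, and Fstl1 (0.925), Col3a1 (0.922) and Col5a2 (0.903) for Loxl2. For Plod2 they were Col6a3 (0.942), Fstl1 (0.915) and Aebp1 (0.911), and for Lox Col1a1 (0.867), Tmem119 (0.866) and Eln (0.857), the elastin gene. For Loxl3 they were Crtap (0.858), which serves collagen prolyl 3-hydroxylation, Gpx8 (0.850) and Serping1 (0.835).

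Plod1 was most like Sh3glb1 (0.844), Scarf1 (0.836), an endothelial scavenger receptor, and Rac1 (0.828), with -0.15 to Col1a1. P4ha1 was most like Ccdc186 (0.766), Il4ra (0.755) and Il6st (0.749), and P4ha2 like Esyt2 (0.782), Kcns3 (0.779) and Rbfox2 (0.777). Plod3 was most like Nes (0.773), Pdlim7 (0.759) and Armcx3 (0.740), and Loxl4 like Sema3d (0.807), Gpc4 (0.807) and Fgfr2 (0.806). Between members, rho was highest for Loxl2 with Plod2 (0.856), Loxl1 with Plod2 (0.844) and Lox with Plod2 (0.767).

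The other enzymes and chaperones of collagen folding act in the same compartment as the hydroxylases. Beside each count of listed genes stands a share of all genes past 2-fold in either direction of 4.08% in the VitA+ gate and 9.34% in the VitA- gate. Of 15 listed, 13 were at the minimum mean in each gate and 0 passed 2-fold. In the VitA+ gate the furthest from 1 were Sparc (4572 against 3169 CPM, ratio 1.44), Tmem38b (1.40), Fkbp10 (1.24) and Fkbp14 (0.817), and in the VitA- gate P4hb, the partner subunit of P4ha1 and P4ha2, was at 0.815. Of 5 procollagen export genes, 0 passed 2-fold. In the VitA+ gate Creb3l1, a transcription factor of secretory load, was at 1.78, while Sec23a (0.696), Mia3 (0.829) and Kdelr2 (0.851) were lower. In the VitA- gate Sec24d and Sec23a, parts of the export coat, were at 0.609 and 0.601, Mia3 at 0.796 and Creb3l1 at 0.844.

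Among proteases that trim procollagen or activate lysyl oxidase, 0 of 4 measured passed 2-fold in the VitA+ gate. There Adamts14 was at 0.664 and Pcolce, the enhancer of procollagen C-proteinase, at 1.47. In the VitA- gate 2 of 6 measured were past 2-fold lower, Pcolce2 at 0.288 and Adamts3 at 0.483. Adamts3, at 4.22 CPM with DEN+WAD and 8.74 with chow, reached the minimum mean only through chow, so nothing is read from its call. Of 12 substrates and partners of lysyl oxidases, Col1a1 was past 2-fold higher in the VitA+ gate, and Eln (0.395) and Fbln5 (0.420), both of the elastic fibre, were past 2-fold lower in the VitA- gate. Their median log2 ratio was 0.27 in the VitA+ gate and -0.65 in the VitA- gate.

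The 3 genes of copper supply, on which lysyl oxidases depend, stayed within 2-fold in both gates, with Atp7a, the pump that loads copper into secreted enzymes, at 1.06 and 1.49. Of 15 hypoxia targets, a class that includes P4ha1 and Plod2 in other settings, 11 were measured and 0 passed 2-fold in either gate. Ldha was at 1.56 in the VitA+ gate and Ndrg1 at 1.56 in the VitA- gate. Pfkfb3 was lower in both, at 0.715 and 0.649, and Vegfa was at 1.25 and 0.731. Of 8 TGF-beta and activation targets 7 were measured. In the VitA+ gate Timp1 (53.9) and Acta2 (10.4) were past 2-fold higher and Spp1 (0.205) past 2-fold lower, where Timp1 was at 1.46 CPM in chow and reached the minimum mean only with DEN+WAD. A chow cluster of 56 cells was led by Spp1, Ankrd1 and Krt8, the last an epithelial keratin, and its part in the result was not tested. In the VitA- gate Tgfbi (2.998) was past 2-fold higher and Acta2 (0.488) lower.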

How the data were processed

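RNA of single sorted liver cells was sequenced in 5 droplet libraries (10x Genomics), for which 10000 cells each were aimed at. For every cell barcode the authors deposited unnormalised UMI counts of each gene, mapped to mm10 with Cell Ranger. The file headers name version 3.1.0 for the 4 Col1a1+ libraries and 6.1.2 for the library labelled VitA-Col1a1-. The labels name both a v3.1 and a v2 kit, which is not settled here. All deposited barcodes were used (lowest total 500 UMIs), and groups came from the labels. The members and gene lists were chosen with earlier results of these data known.

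UMIs were summed over cells and scaled to 1e+06. Exact Poisson and conditional binomial intervals at 95% were computed, and genes with a mean of at least 5 CPM in a comparison were called at 2-fold. Named by rule were all 10 members and Col1a1, up to 4 genes a pathway list with the largest absolute log2 ratio in each gate, and the 3 genes most like each member over clusters of at least 50 cells. Genes of single clusters and of single listed results outside this rule were named after their values were seen. Ctgf is the files' symbol for Ccn2, and Ccn1 was not matched. For shares, cells were thinned to 5000 UMIs.

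Each library was clustered by itself (2000 variable genes, 30 principal components, 15 neighbours, Leiden resolution 1) and named from 16 marker lists. A marker counted as found in at least 25% of a cluster's cells, and 3 were needed. Stellate, portal fibroblast and smooth muscle names were joined as mesenchymal-like, since leading genes did not separate them reliably. No doublet caller was run, and leaving out the 2% of cells with the most UMIs was an alternative. Other alternatives were TMM factors (edgeR), median-of-ratios factors (DESeq2), the mean over cells, cells with at least 5000 or 10000 UMIs, other resolutions, a 1.5-fold call, no minimum, totals without collagens, mesenchymal-like clusters only, barcodes not shared and, chosen after seeing the data, Lrat-positive cells and wider mesenchymal clusters. The computation was tested on simulated data. Coordinates are GRCm38 (GENCODE M21), 1-based. Software was R 4.3.3 with edgeR 4.0.16 and DESeq2 1.42.0, and Python 3.11.15 with scanpy 1.11.5, igraph 0.11.9, scipy 1.17.1, matplotlib 3.10.9, anndata 0.12.19, pandas 2.3.3 and numpy 2.4.6.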

Additional observations from a re-analysis of the deposited data

Results flagged for a closer look

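For 5 of the 10 members and for Col1a1, the DEN+WAD to chow ratio lay on opposite sides of 1 in the 2 Col1a1+ gates, with neither interval holding 1. The difference of the log2 ratios, VitA+ gate minus VitA- gate, was 4.33 for Lox, 1.53 for Plod2, 1.18 for Loxl1, 0.69 for Loxl2 and -1.42 for Loxl4, and 2.55 for Col1a1. With 1 library in each of the 4 groups these differences were not tested. Portal fibroblast markers summed to 105 CPM with DEN+WAD against 58.4 with chow in the VitA+ gate and to 1273 against 3452 in the VitA- gate, and their part in the differences was not tested. Within mesenchymal-like clusters the ratios were again on opposite sides for Lox (6.58 and 0.392), Plod2 (1.48 and 0.612), Loxl1 (1.66 and 0.730), Loxl2 (1.07 and 0.840) and Loxl4 (0.538 and 1.42), although the Loxl2 interval in the VitA+ gate held 1.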

How the results depend on the processing

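No paired analysis was possible because each group is 1 library and the labels give no replicate numbers shared between groups. The depth limits Lox in VitA+Col1a1+ chow (6 UMIs) and Loxl4 (54 UMIs in VitA-Col1a1+ chow), and all values compare single libraries. In the VitA+ gate the median log2 ratio of DEN+WAD to chow was 0.10 and became 0.28 under TMM. TMM moved all genes by 0.19 on the log2 scale there and by -0.20 between gates of DEN+WAD liver, and DESeq2 factors by 0.13 and -0.17. The 0 members past 2-fold became 1 lower by the mean over cells, 1 higher with no minimum, and 2 higher and 2 lower at 1.5-fold. In the VitA- gate the 1 lower became 2 at 1.5-fold. Between gates of DEN+WAD liver the median of 0.11 became -0.10 under TMM, -0.0645 under DESeq2 factors and 0.16 in Lrat-positive cells. Single ratios that changed sign under TMM and DESeq2 factors were P4ha1 in the VitA+ gate (0.0749 and 0.0146) and, between gates of DEN+WAD liver, Plod3 (-0.0624 and -0.0279) and Loxl2 (-0.14 and -0.10). The median rho to Col1a1 was lower after thinning, at 0.0505 (0.0873 unthinned) for VitA+Col1a1+ DEN+WAD, 0.0663 (0.149) and 0.0592 (0.139) for the VitA- gate of DEN+WAD and chow liver and 0.128 (0.248) for the fifth library, labelled VitA-Col1a1-. In mesenchymal-like clusters alone it was 0.100 in the VitA- gate of DEN+WAD liver and 0.117 in the fifth library. The rank correlation with Col1a1 changed sign for Loxl4 in VitA-Col1a1+ DEN+WAD (-0.0031 thinned, -0.0314 in mesenchymal-like clusters) and, in mesenchymal-like clusters, for Plod1 in VitA-Col1a1+ chow (0.0232) and in the library labelled VitA-Col1a1- (0.0816) and for P4ha1 in the latter (-0.0445). The summed lysyl oxidases in mesenchymal-like cells moved with the clustering resolution, from 211 to 205 CPM at resolution 0.5 and 208 at 2 in the VitA+ gate with DEN+WAD, from 406 to 444 at 2 in the VitA- gate with DEN+WAD, from 550 to 571 at 0.5 with chow, and from 575 to 582 at 0.5 and 555 at 2 in the fifth library. In endothelial-like cells they moved from 105 to 119 at 0.5 in the VitA- gate with DEN+WAD and from 90.8 to 98.9 at 2 in the fifth library. The cause of these changes was not tested. Of the alternatives for single genes, 486 stayed within the counting interval of the reported value (for rho, within an approximate sampling error), 157 moved beyond it and 11 changed sign. A sign change was counted or named here only where the reported log2 ratio or rho lay further from 0 than that error.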

Other observations

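Lox was also found in a small endothelial-like cluster of the library labelled VitA-Col1a1-, 154 cells led by Adgrg6, Vwf and Gja5, the last 2 known from larger vessels. It held 23 Lox UMIs in 15 cells, with at most 4 in 1 cell, or 18.0 CPM (11.4 to 27.0). Col1a1 was also at 23 UMIs there, or 18.0 CPM (11.4 to 27.0), and Loxl1 at 7 UMIs, or 5.47 CPM (2.20 to 11.3). In mesenchymal-like cells of the same library Lox stood at 60.2 CPM beside 2045 of Col1a1. The largest endothelial-like cluster, 1494 cells led by Cyp26b1, Adam23 and Kdr, held Lox at 0.443 CPM (5 UMIs) beside Col1a1 at 17.3. The cluster of 154 cells was picked out after its values were seen.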
